A study of Arabidopsis thaliana with 18 samples.

Results

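The UGT genes of Arabidopsis thaliana encode UDP-dependent glycosyltransferases, and 46 of them were followed here across mutants of the N-end rule pathway, low oxygen and 2 developmental stages. A gene was taken when its symbol starts with UGT followed by a digit and when a probe set (the group of short probes that reports 1 transcript on the array) was annotated to that gene alone. Of 13513 probe sets annotated to exactly 1 gene, 46 met this rule, each for a different gene, and 3 further UGT probe sets that name several genes were left out. The subfamilies, given by the number after UGT, were UGT71 with 9 genes, UGT76 with 8, UGT73 with 7, UGT84 and UGT85 with 5 each, UGT72 with 4, UGT74 with 3, UGT78 with 2, and UGT80, UGT87 and UGT88 with 1 each.

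UGT enzymes move a sugar, most often glucose, from a UDP-sugar onto a small molecule, which changes its solubility, its activity and where in the cell it is stored. Their acceptors include plant hormones, phenylpropanoids and lignin precursors, flavonoids, glucosinolate intermediates and foreign compounds. Many of the genes lie in tandem arrays of close relatives, and the acceptor of several members is not established.

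Transcripts were measured on 18 ATH1 arrays in 2 mutants affected in the arginylation branch of the N-end rule, a route of targeted protein breakdown, and in wild type Col-0. The prt6-1 mutant is defective in PRT6, a ubiquitin ligase of that branch, and ate1 ate2 lacks the function of both arginyl-tRNA protein transferase genes. Each mutant is represented by 1 genotype, and transcripts of the mutated genes were not analysed here. The seedling groups were ate1 ate2, prt6-1 and Col-0 under hypoxia and ate1 ate2, prt6-1 and Col-0 in air, with 2 arrays each. Those seedlings were 7 d old and were harvested whole after 2 h in argon (hypoxia) or in air, starting at the end of the light period under dim light. They had 3 d of cold and were grown at 23 °C with 16 h of light and 8 h of dark. The seed groups were prt6-1 and Col-0, with 3 arrays each of whole after-ripened seeds that had been kept cold for 48 h and then imbibed for 24 h in constant light. The growth temperature given for the seed samples is 22 °C. The series describes its replicates as independent biological experiments.

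Values are on the log2 scale, so a difference of 1 is a doubling, and each comparison gives its difference, the standard error (SE) and a limma p adjusted over all 22746 probe sets tested. A gene was called higher or lower at an adjusted p under 0.05, two-sided. Array medians lay between 6.70 and 6.88, and arrays of 1 group correlated at 0.986 or more across probe sets. The lowest of these correlations was in Col-0 seeds, where replicate 1 stood apart, and results on seeds are also given without that array. The labelled tissues were matched by the few markers measured. A listed gene counts as measured in this text when a probe set was annotated to that gene alone. The array may also report others, since 8730 probe sets had no gene listed. RCA, the Rubisco activase gene and the only one of 14 photosynthesis markers measured, lay between 14.32 and 14.39 in seedling arrays and between 9.79 and 10.61 in seed arrays. The mean of the 2 measured of 13 seed storage and oil body markers lay between 4.46 and 4.95 in seedlings and between 8.40 and 9.82 in seeds. All 7 measured of 10 hypoxia control genes were called higher under hypoxia than in air in each genotype, with medians of 2.56 in prt6-1, 1.86 in ate1 ate2 and 4.89 in Col-0.

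Most calls in the family were between tissues, as on the array as a whole. Of the 46 genes, 56.5% were called between air seedlings and seeds in Col-0 and 60.9% in prt6-1, beside 65% and 64.9% of all probe sets. Within seedlings or within seeds a single comparison called between 0% and 10.9% of the family, beside 0.127% to 5.19% of all probe sets. Counted over comparisons, 32 were called between air seedlings and seeds in at least 1 genotype, 11 in any of the 12 comparisons within seedlings or within seeds, and 13 in none of the 15 comparisons. Such counts over several comparisons were not made for all probe sets, so they are not read as many or few. Within the 12 seedling arrays a gene's full range ran between 0.22 and 1.29 log2 units, with a median of 0.60, against 0.47 over all probe sets. The 3 genes with a range over 1 were UGT71C2 at 1.29, UGT78D1 at 1.14 and UGT76B1 at 1.06, which is 6.52% of the family, and 5.63% of all probe sets had such a range. Signal over background is unknown for these data. By level, 13 genes fell in the dimmest 33.3% of probe sets in seedlings and 11 in seeds, 9 of them in both.

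**Figure D1:**
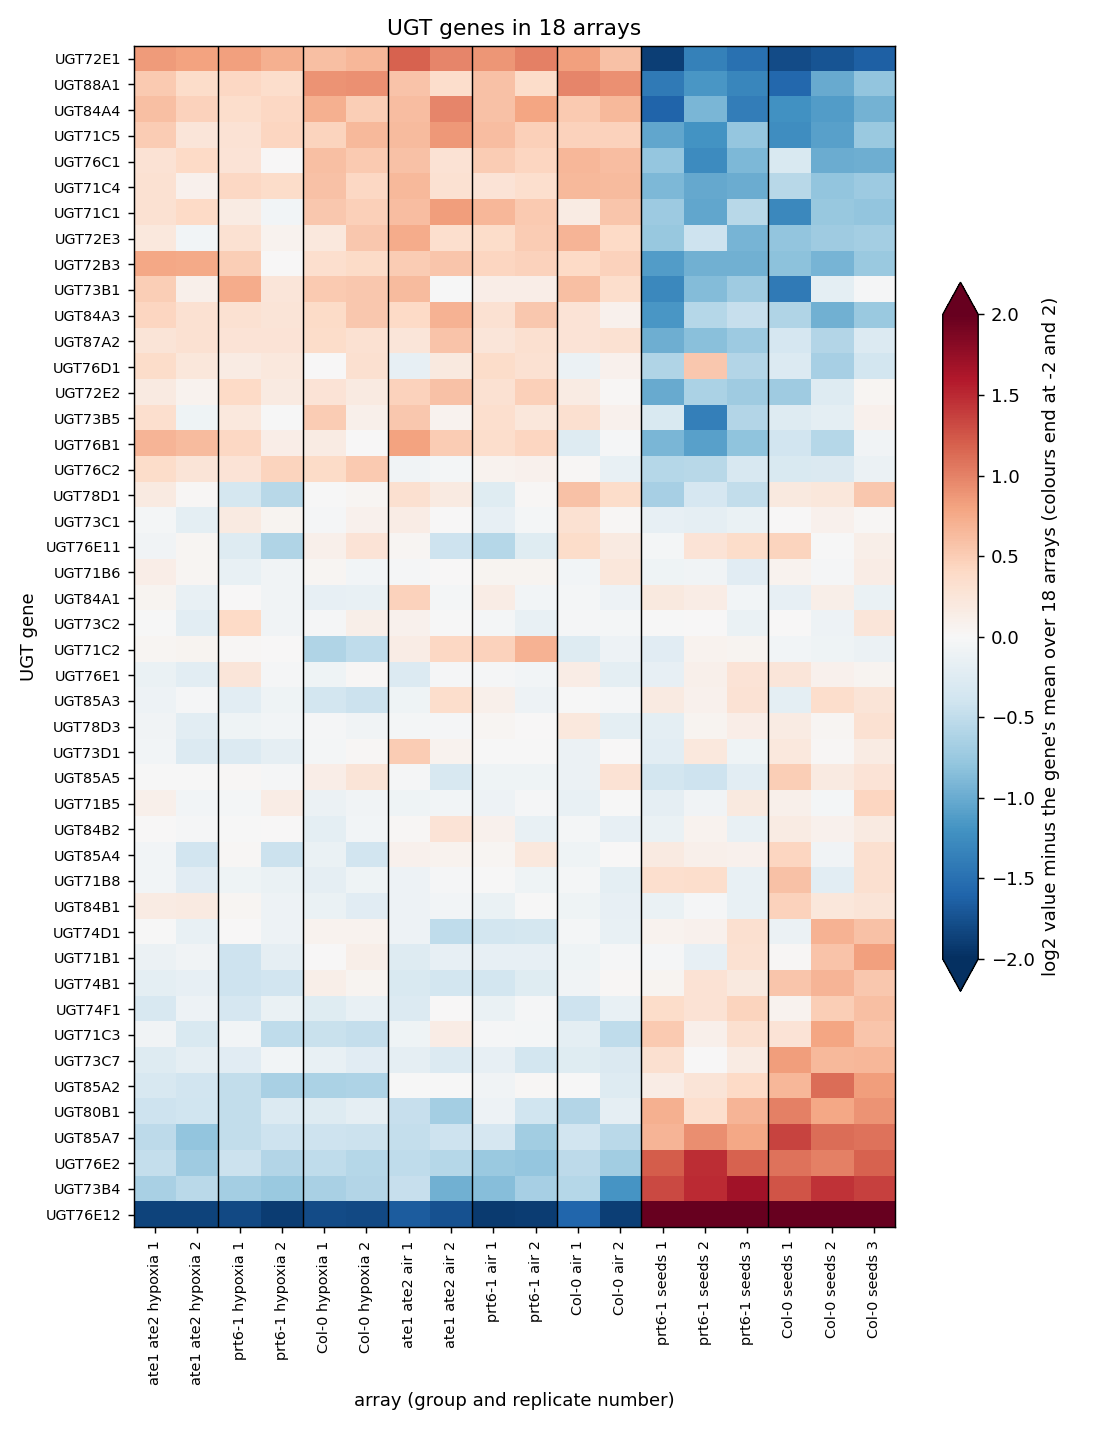
Each row is 1 of 46 UGT genes and each column 1 of 18 arrays, and colour gives the log2 value minus that gene's mean over all arrays, ending at -2 and 2. UGT72E1, UGT88A1 and UGT84A4 at the top are high in all 12 seedling arrays, and UGT76E2, UGT73B4 and UGT76E12 at the bottom are high in all 6 seed arrays, where UGT76E12 runs past the end of the colours.

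The comparison of air seedlings with imbibed seeds asks which family members differ between the 2 stages. In Col-0, 13 genes were higher and 13 lower in seedlings, beside 27% of all probe sets higher and 38% lower (65% in all). In prt6-1, 18 were higher and 10 lower, beside 27.7% of all probe sets higher and 37.2% lower (64.9% in all). The family's shares of 56.5% and 60.9% therefore lie near the background. In both genotypes 22 genes were called with the same sign, a count that was not made for all probe sets. Seedlings and seeds also differed in medium, cold period, temperature and light regime, which cannot be told apart from stage, and in whole organs fewer cells of a type and less RNA per cell cannot be told apart either.

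UGT76E12 (AT3G46660) showed the widest difference of the family, with 4.37 and 4.08 in Col-0 air seedlings against 9.30, 8.99 and 9.67 in Col-0 seeds. In prt6-1 it gave 4.05 and 4.07 in air seedlings against 9.86, 9.74 and 9.94 in seeds. No seedling array came near any seed array, and the seedling values lie in the dimmest 33.3% of probe sets. Measured this way, the transcript was 34.1-fold lower in seedlings than in seeds of Col-0 (log2 difference -5.09, SE 0.15, adjusted p = 1.1e-14) and 55.2-fold lower in prt6-1 (-5.79, SE 0.15, adjusted p = 2.42e-15). Since signal over background is unknown for these dim seedling values, neither fold gives the size of the change exactly, and the gap between the 2 folds is not read as a difference between genotypes. Its relative UGT76E11, separated from it by 1 protein-coding gene, differed by 0.09 in Col-0 and was not called there, while in prt6-1 it was lower in seedlings by -0.61 (SE 0.17, adjusted p = 0.00487).

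UGT76E2 (AT5G59590), of the same subfamily, had 6.08 and 5.91 in Col-0 air seedlings against 7.69, 7.61 and 7.79 in Col-0 seeds, with no overlap. It was 3.24-fold lower in seedlings of Col-0 and 4.13-fold lower in those of prt6-1 (adjusted p = 6.11e-10 and 5.17e-11). UGT76E1, the adjacent gene, which can glucosylate a hydroxylated jasmonate, gave -0.15 and -0.11 and was called in neither genotype.

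UGT72E1 (AT3G50740), which acts on coniferyl and sinapyl aldehydes, had 8.94 and 8.71 in Col-0 air seedlings against 6.32, 6.39 and 6.49 in Col-0 seeds. In prt6-1 it had 9.0 and 9.13 in air seedlings against 6.23, 6.76 and 6.63 in seeds. The seedling arrays all lay above the seed arrays, by 5.36-fold in Col-0 and 5.76-fold in prt6-1 (adjusted p = 5.4e-11 and 3.11e-11). UGT72E3 and UGT72B3 were higher by 1.27 and 1.26 in Col-0 and by 1.14 and 1.46 in prt6-1. UGT72E2, whose enzyme makes coniferin and syringin, was higher by 1.18 in prt6-1 and by 0.40 in Col-0, where the groups overlapped and the adjusted p was 0.046. All 4 measured UGT72 genes were thus called higher in both genotypes, beside 27% of all probe sets in Col-0 and 27.7% in prt6-1. With 4 genes, nothing is read from this about the subfamily. The Col-0 call of UGT72E2 was lost on leaving out most of the single arrays in turn, as given below.

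Within the UGT84A group, whose enzymes form glucose esters of hydroxycinnamic acids, UGT84A4 and UGT84A3 were higher in seedlings. UGT84A4 (AT4G15500) had 7.29 and 7.40 in Col-0 air seedlings against 5.55, 5.64 and 5.82 in Col-0 seeds, with no overlap. It was 3.20-fold higher in seedlings of Col-0 and 3.95-fold higher in those of prt6-1 (adjusted p = 9.18e-08 and 1.04e-08). UGT84A3 was higher by 0.95 and 1.16, and UGT84A1, which lies next to it, gave -0.02 and -0.05 and was called in neither.

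Hormone-conjugating genes went both ways. UGT76C1, which attaches glucose to the ring nitrogen of cytokinins, was higher in seedlings by 1.40 in Col-0 and 1.44 in prt6-1 (adjusted p = 2.84e-06 and 1.91e-06). The neighbouring UGT76C2, with the same activity, was higher by 0.57 in prt6-1 (adjusted p = 0.00019) and gave 0.18 in Col-0, where it was not called. UGT71C5 (AT1G07240), which forms the glucose ester of abscisic acid, was 2.79-fold higher in seedlings of Col-0 and 2.91-fold higher in those of prt6-1. UGT71B6, active on the same hormone, gave 0.02 and 0.18 and was called in neither. UGT74D1, which acts on auxins, was lower by -0.48 and -0.53, and UGT74F1, which forms a salicylic acid glucoside, by -0.67 and -0.45. UGT84B1, which esterifies indole-3-acetic acid, was lower by -0.44 in Col-0 and gave 0.03 in prt6-1, where it was not called. Its values lie in the dimmest 33.3% in both tissues.

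UGT88A1 (AT3G16520), a flavonoid glucosyltransferase in vitro, had 10.84 and 10.78 in Col-0 air seedlings against 8.28, 8.84 and 9.07 in Col-0 seeds. The gene was 4.22-fold higher in seedlings of Col-0 and 3.39-fold higher in those of prt6-1, and no arrays overlapped. UGT73B4 (AT2G15490), which is induced by pathogens and foreign compounds, had 5.5 and 4.89 in Col-0 air seedlings against 7.32, 7.51 and 7.45 in Col-0 seeds, and was 4.70-fold lower in seedlings of Col-0 and 4.76-fold lower in those of prt6-1. Its neighbour UGT73B5 was higher by 1.04 in prt6-1 (adjusted p = 0.00107) and gave 0.32 in Col-0, where it was not called. UGT80B1, a sterol glucosyltransferase gene, was lower by -1.28 and -0.82. UGT74B1, which adds glucose in the core glucosinolate pathway, was lower by -0.62 and -0.48.

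The remaining calls in both genotypes were higher in seedlings for UGT71C1 (1.30 in Col-0 and 1.37 in prt6-1), UGT71C4 (1.33 and 1.28), UGT73B1 (1.02 and 1.09) and UGT87A2 (0.69 and 1.12), the last a gene that affects flowering time. UGT85A7 (-1.65 and -1.31) and UGT73C7 (-0.98 and -0.43) were lower. In Col-0 alone UGT71B1 (-0.53), UGT71C3 (-0.89) and UGT85A2 (-1.0) passed the test. In prt6-1 alone UGT71C2 (0.61), UGT76B1 (1.32) and UGT78D1 (0.39) did. Passing in 1 genotype does not show that the genotypes differ, and the test of that difference is given with the seed results.

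In the gene table, 14 pairs of members were direct neighbours with no protein-coding gene between them. In 4 of these pairs both genes were called in Col-0, and in 1 pair the signs were opposite. That pair was UGT71C4, higher by 1.33, and UGT71C3, a methyl salicylate glucosyltransferase gene, lower by -0.89. Such counts were not made for neighbouring genes over the whole array, where 65% of all probe sets were called in this comparison. The counts of pairs are therefore not read as many or few. The neighbours UGT71C1 and UGT71C2 gave 1.30, which was called, and -0.10, which was not. Probes of close relatives can bind each other's transcripts, and the part of this in any value was not tested. Without Col-0 seeds replicate 1 the Col-0 comparison called 26 genes, 25 of them among those named above, and UGT72E2 lost its call (0.20, adjusted p = 0.221). Leaving out Col-0 air replicate 1 ended the calls of UGT71B1, UGT72E2, UGT73B1 and UGT74D1, with adjusted p between 0.0682 and 0.215, and UGT71B1, UGT72E2 and UGT74D1 were also lost without other single arrays, UGT72E2 in most cases. In prt6-1 the calls of UGT74D1, UGT74F1 and UGT76E11 were lost without prt6-1 air replicate 1 (adjusted p = 0.0744, 0.094 and 0.0879), those of UGT73C7, UGT74D1 and UGT78D1 without prt6-1 air replicate 2 (0.0555, 0.0713 and 0.209), UGT78D1 without prt6-1 seeds replicate 1 (0.074) and UGT74D1 without prt6-1 seeds replicate 3 (0.062).

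**Figure D2:**
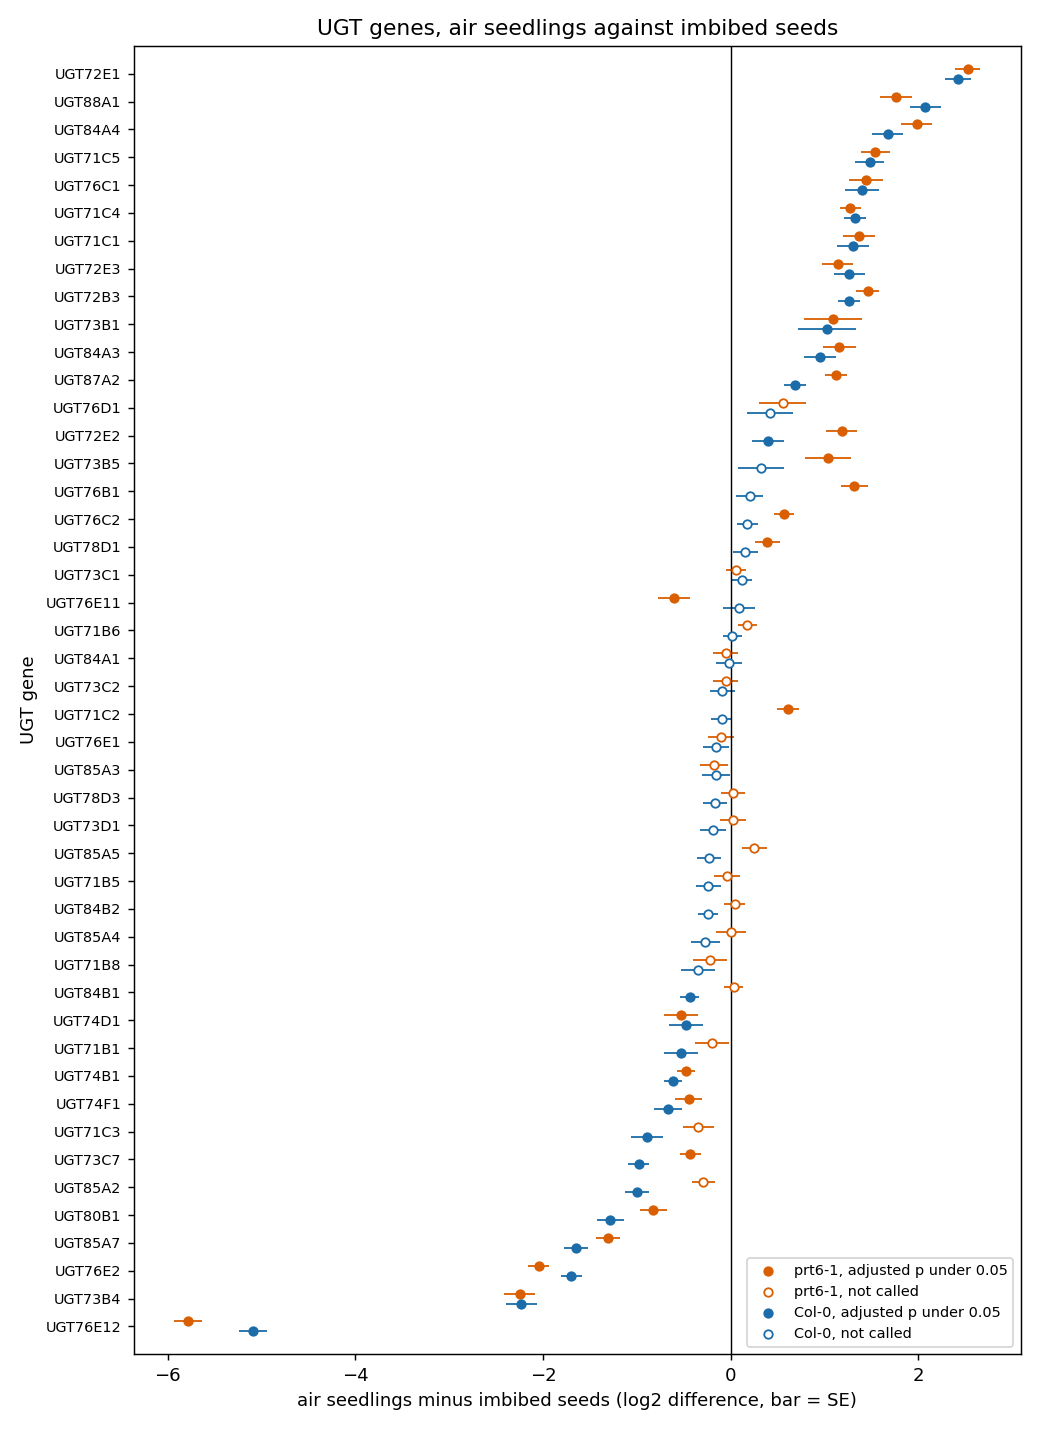
The log2 difference of air seedlings minus imbibed seeds is plotted for each of 46 UGT genes, with prt6-1 above Col-0 in each row, bars showing the SE and filled points an adjusted p under 0.05. UGT72E1 at the top is 2.52 in prt6-1 and 2.42 in Col-0, and UGT76E12 at the bottom is -5.79 and -5.09.

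The comparison of each mutant with Col-0 in air seedlings asks which UGT genes differ from Col-0 in the mutants without an oxygen shortage. In prt6-1, 2 UGT genes were higher and 3 lower, beside 2.18% of all probe sets higher and 1.97% lower (4.15% in all). In ate1 ate2, 2 were higher and 1 lower, beside 2.09% of all probe sets higher and 1.62% lower (3.71% in all). The family's shares were 10.9% and 6.52%, and its medians of 0.02 and 0.05 lay near the medians of -0.01 over all probe sets. Both mutants were set against the same Col-0 arrays, so the 2 sets of calls are not independent.

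UGT71C2 (AT2G29740) was higher in both mutants. It had 7.10 and 7.32 in prt6-1 air seedlings and 6.78 and 7.04 in ate1 ate2 air seedlings, against 6.37 and 6.53 in Col-0 air seedlings. All mutant arrays lay above both Col-0 arrays. The difference was 0.76 in prt6-1 (SE 0.12, adjusted p = 0.00152) and 0.46 in ate1 ate2 (SE 0.12, adjusted p = 0.0434).

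UGT76B1 (AT3G11340) encodes an enzyme that conjugates isoleucic acid, salicylic acid and N-hydroxypipecolic acid and so affects defence signalling. Its values were 8.16 and 8.24 in prt6-1 air seedlings and 8.61 and 8.32 in ate1 ate2 air seedlings, against 7.55 and 7.79 in Col-0 air seedlings. No mutant array overlapped Col-0. The gene was 1.44-fold higher in prt6-1 (0.53, SE 0.13, adjusted p = 0.0349) and 1.74-fold higher in ate1 ate2 (0.80, SE 0.13, adjusted p = 0.00261).

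UGT88A1 moved the other way, with 10.44 and 10.22 in prt6-1 air seedlings and 10.43 and 10.21 in ate1 ate2 air seedlings, against 10.84 and 10.78 in Col-0 air seedlings. The 2 mutants covered the same range, and both lay below Col-0. The gene was lower by -0.48 in prt6-1 (SE 0.11, adjusted p = 0.0283) and by -0.49 in ate1 ate2 (SE 0.11, adjusted p = 0.0273).

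UGT78D1 (AT1G30530), which adds rhamnose to flavonols, had 8.54 and 8.80 in prt6-1 air seedlings against 9.36 and 9.14 in Col-0 air seedlings. It was lower in prt6-1 by -0.58 (SE 0.13, adjusted p = 0.0163), with no overlap. UGT76E11 (AT3G46670) had 6.27 and 6.59 in prt6-1 air seedlings against 7.20 and 7.02 in Col-0 air seedlings. This gene was lower in prt6-1 by -0.67 (SE 0.16, adjusted p = 0.0286), again without overlap. In ate1 ate2 it gave -0.46 (adjusted p = 0.153), and UGT72E2 gave 0.44 (adjusted p = 0.0508), neither of them called. Without ate1 ate2 air replicate 1 UGT76E11 passed (-0.69, adjusted p = 0.0381), and UGT72E2 passed without the dimmest 33.3% of probe sets, with an intensity trend and with a replicate block (adjusted p = 0.0437, 0.0249 and 0.0453).

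These calls rest on 2 arrays a group. Leaving out Col-0 air replicate 1, UGT71C2 alone of the 5 genes kept its call in prt6-1 and UGT76B1 alone of the 3 in ate1 ate2. In prt6-1, leaving out Col-0 air replicate 2 ended the calls of UGT76E11 and UGT88A1 (adjusted p = 0.0512 and 0.0639), prt6-1 air replicate 1 those of UGT76B1, UGT76E11 and UGT78D1 (0.115, 0.239 and 0.169), prt6-1 air replicate 2 those of UGT76B1 and UGT88A1 (0.199 and 0.251), and either ate1 ate2 hypoxia array that of UGT76B1 (0.0524). In ate1 ate2, leaving out Col-0 air replicate 2 or ate1 ate2 air replicate 2 ended the calls of UGT71C2 and UGT88A1, and leaving out any 1 hypoxia array ended that of UGT71C2 (adjusted p between 0.0594 and 0.0654). Calls were also gained there, for UGT71C1 without Col-0 air replicate 2 (0.57, adjusted p = 0.0459) and for UGT73D1 without ate1 ate2 air replicate 2 (0.56, adjusted p = 0.0447).

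The same comparison under hypoxia asks whether the mutants differ from Col-0 once oxygen is short. In prt6-1, 1 UGT gene was higher and 4 lower, beside 1.55% of all probe sets higher and 3.64% lower (5.19% in all). In ate1 ate2, 2 were higher and 1 lower, beside 1.11% of all probe sets higher and 1.51% lower (2.62% in all). The group means come from other arrays than those compared in air. All seedling comparisons share 1 model and 1 estimate of the spread, so the calls are not independent of those in air. The Col-0 hypoxia arrays again serve both mutants.

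UGT71C2 had 6.66 and 6.64 in prt6-1 hypoxic seedlings and 6.67 and 6.68 in ate1 ate2 hypoxic seedlings, against 6.04 and 6.13 in Col-0 hypoxic seedlings. All 4 mutant arrays lay above Col-0 and within 0.1 of one another. The gene was higher by 0.57 in prt6-1 (SE 0.12, adjusted p = 0.011) and by 0.60 in ate1 ate2 (SE 0.12, adjusted p = 0.0117).

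UGT76B1 had 8.49 and 8.45 in ate1 ate2 hypoxic seedlings against 7.97 and 7.82 in Col-0 hypoxic seedlings, and was higher by 0.58 (SE 0.13, adjusted p = 0.0283). In prt6-1 its values of 8.23 and 7.95 overlapped those of Col-0, and it was not called. UGT88A1 had 10.26 and 10.21 in prt6-1 hypoxic seedlings and 10.37 and 10.22 in ate1 ate2 hypoxic seedlings, against 10.75 and 10.76 in Col-0 hypoxic seedlings. It was lower by -0.52 in prt6-1 (SE 0.11, adjusted p = 0.0158) and by -0.46 in ate1 ate2 (SE 0.11, adjusted p = 0.0461), with no overlap.

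UGT74B1 (AT1G24100), the glucosinolate pathway gene, had 9.58 and 9.61 in prt6-1 hypoxic seedlings against 10.10 and 10.05 in Col-0 hypoxic seedlings. The groups were well separated and the gene was lower in prt6-1 by -0.48 (SE 0.10, adjusted p = 0.00966). In ate1 ate2 under hypoxia UGT74B1 gave -0.27 and was not called. UGT78D1 had 8.43 and 8.22 in prt6-1 hypoxic seedlings against 8.78 and 8.82 in Col-0 hypoxic seedlings (-0.47, SE 0.13, adjusted p = 0.0419). UGT76E11 had 6.58 and 6.24 in prt6-1 hypoxic seedlings against 6.93 and 7.10 in Col-0 hypoxic seedlings (adjusted p = 0.0426). UGT71C1, UGT76C1 and UGT71B1 followed with -0.46, -0.42 and -0.35 in prt6-1 and adjusted p between 0.0658 and 0.0758, and were not called. UGT71C1 passed without either Col-0 air array (adjusted p = 0.0362) and UGT76C1 without either ate1 ate2 air array (adjusted p = 0.0388).

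Leaving out either Col-0 hypoxia array ended all 5 calls in prt6-1 and all 3 in ate1 ate2, with the differences keeping their sign. Leaving out prt6-1 hypoxia replicate 2 ended all 5 calls in prt6-1 and replicate 1 ended 4, and leaving out either ate1 ate2 hypoxia array ended all 3 in ate1 ate2 and those of UGT76E11 and UGT78D1 in prt6-1. UGT88A1 in ate1 ate2 was also lost without any 1 Col-0 air or prt6-1 hypoxia array, with adjusted p between 0.0532 and 0.0647.

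The 2 mutants were also set against each other. By limma 0 of 46 genes were called between ate1 ate2 and prt6-1 in air. Of all probe sets 0.0659% were called higher there and 0.0615% lower (0.127% in all). An unadjusted limma p under 0.05 was found for 5 of the 46 genes and for 1815 of all 22746 probe sets. Under hypoxia 0 were called, beside 0.0923% of all probe sets higher and 0.0703% lower (0.163% in all). The unadjusted limma p was under 0.05 there for 6 of the 46 genes and for 1922 of all 22746 probe sets. The largest value was that of UGT78D1 under hypoxia, with 8.97 and 8.80 in ate1 ate2 against 8.43 and 8.22 in prt6-1. It was 0.56 higher in ate1 ate2 (SE 0.13, adjusted p = 0.112), which did not pass the test. With an intensity trend in the limma fit UGT78D1 passed (adjusted p = 0.0414).

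**Figure D3:**
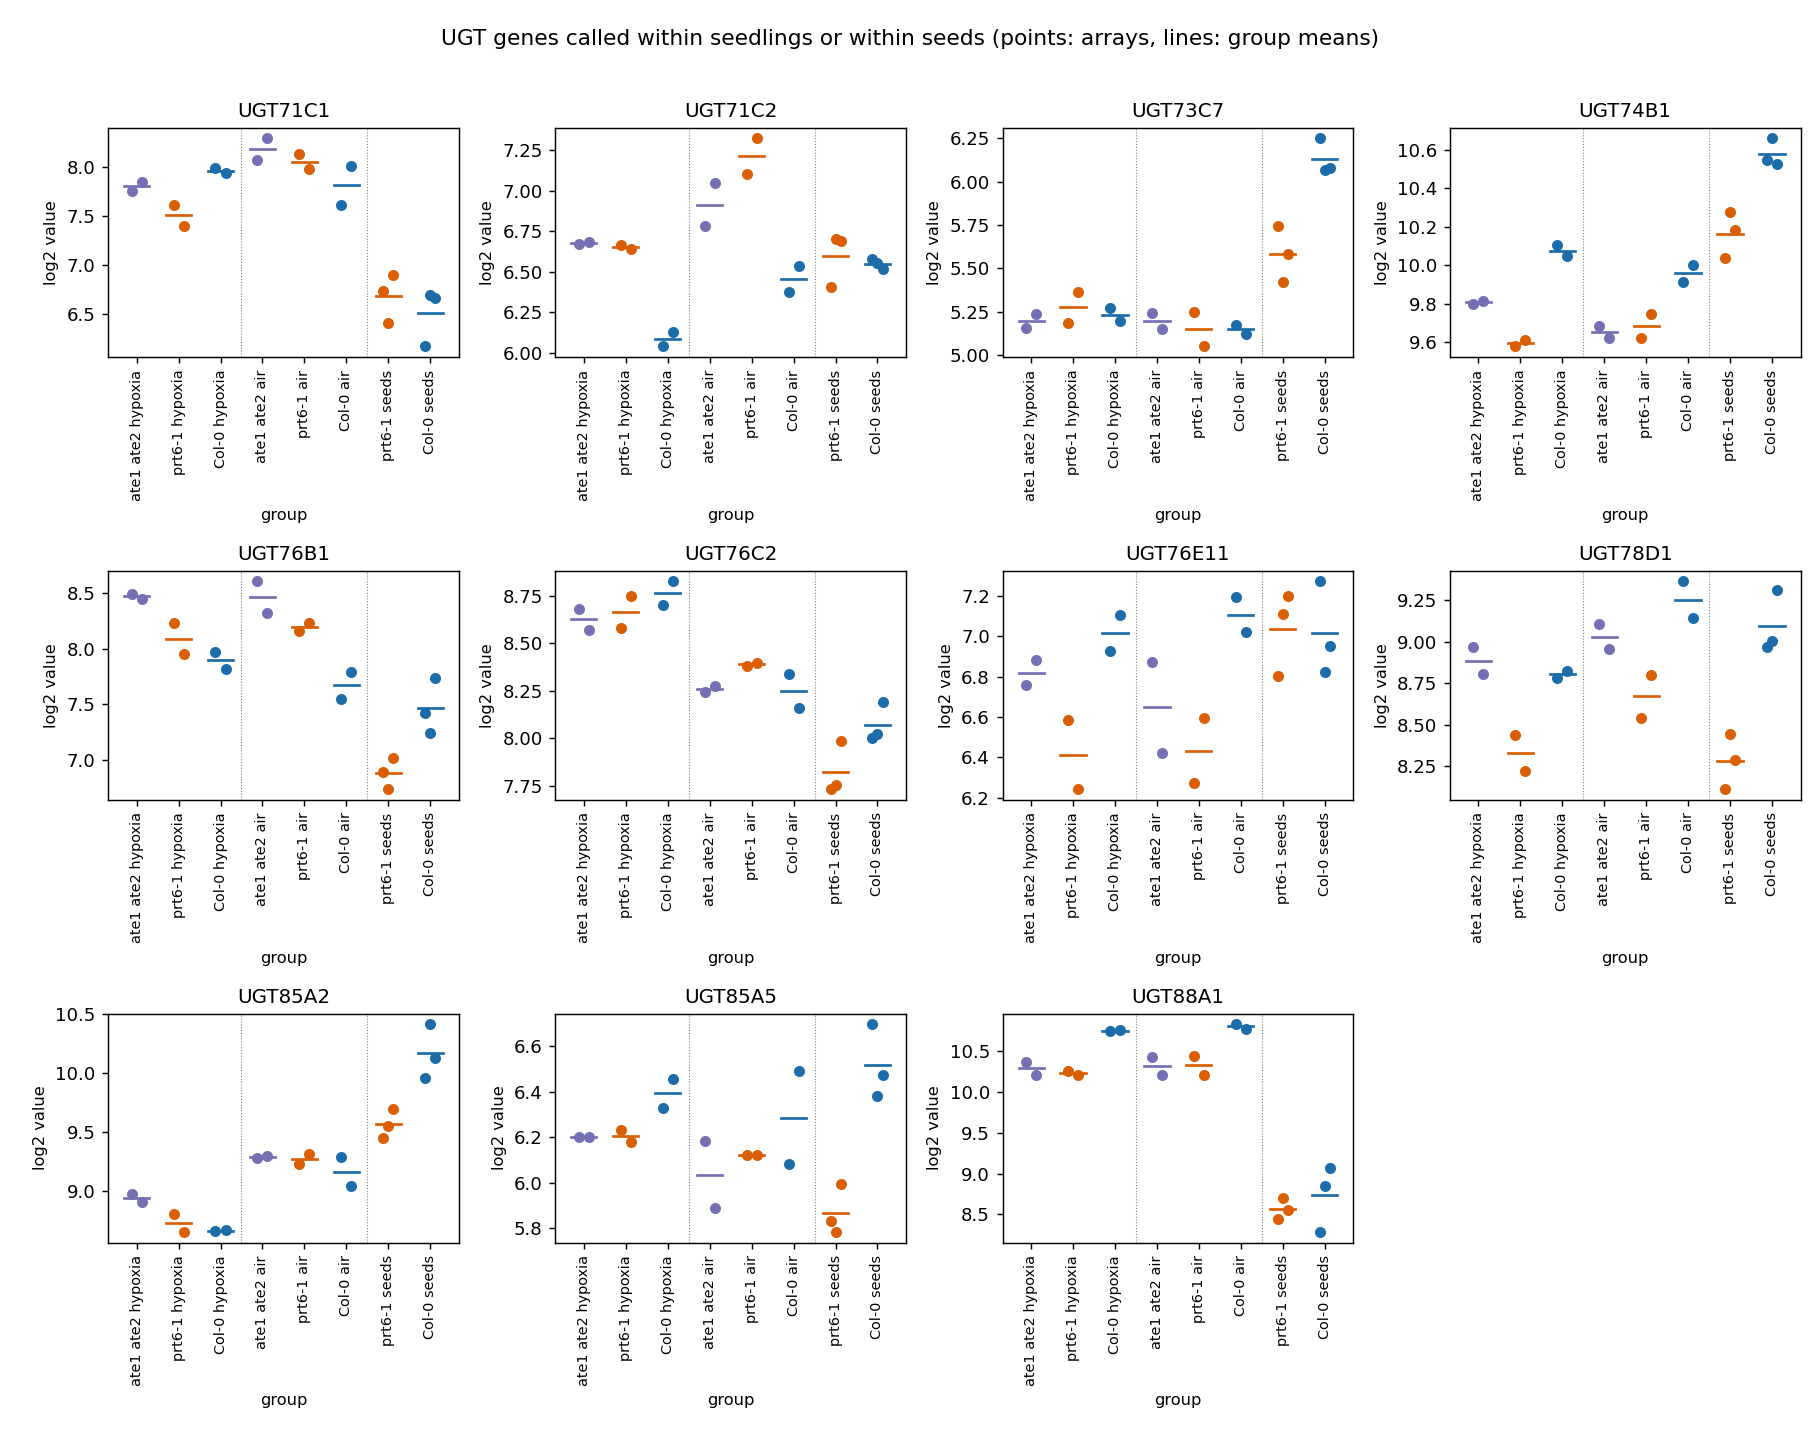
The 11 UGT genes called within seedlings or within seeds are shown, 1 panel each, with a point for every array and a line for each group mean on the log2 scale; each vertical axis has its own range and does not start at 0. UGT71C2 lies between 6.64 and 6.68 in the 4 hypoxic mutant arrays against 6.04 and 6.13 in hypoxic Col-0, and UGT88A1 is lower in every mutant seedling array than in any Col-0 seedling array.

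The comparison of hypoxia with air within each genotype asks which UGT genes respond to 2 h of low oxygen. In prt6-1, 0 genes were higher and 3 lower, beside 1.75% of all probe sets higher and 2.32% lower (4.08% in all). In ate1 ate2, 0 genes were called by limma, beside 1.61% of all probe sets higher and 1.31% lower (2.92% in all). The unadjusted limma p in ate1 ate2 was under 0.05 for 10 of 46 genes and for 3474 of all 22746 probe sets. In Col-0, 1 was higher and 1 lower, beside 1.64% of all probe sets higher and 0.457% lower (2.1% in all). The family's medians were -0.10 in prt6-1, -0.12 in ate1 ate2 and 0.00 in Col-0. Over all probe sets the medians were -0.015, -0.016 and -0.008, and no p is attached to the family's medians.

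UGT76C2 (AT5G05860), the cytokinin gene, had 8.70 and 8.83 in Col-0 hypoxic seedlings against 8.34 and 8.16 in Col-0 air seedlings, without overlap. It was the only member called higher under hypoxia in any genotype (0.51, SE 0.11, adjusted p = 0.018). In prt6-1 it had 8.58 and 8.75 under hypoxia against 8.38 and 8.40 in air, a difference of 0.28 that was not called (adjusted p = 0.211). In ate1 ate2 it had 8.68 and 8.57 under hypoxia against 8.24 and 8.27 in air, a difference of 0.37 that was not called either (adjusted p = 0.088).

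UGT85A2 (AT1G22360) had 8.66 and 8.67 in Col-0 hypoxic seedlings against 9.29 and 9.04 in Col-0 air seedlings. In prt6-1 it had 8.81 and 8.65 under hypoxia against 9.23 and 9.32 in air. The hypoxic arrays lay below the air arrays in both genotypes, by -0.50 in Col-0 (SE 0.11, adjusted p = 0.0232) and by -0.54 in prt6-1 (SE 0.11, adjusted p = 0.00939). In ate1 ate2 the values were 8.98 and 8.91 under hypoxia against 9.28 and 9.30 in air, and the difference of -0.34 was not called (adjusted p = 0.116).

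The other calls were in prt6-1. UGT71C2 had 6.66 and 6.64 in prt6-1 hypoxic seedlings against 7.10 and 7.32 in prt6-1 air seedlings (-0.56, SE 0.12, adjusted p = 0.013). UGT71C1 (AT2G29750), the gene next to it, had 7.61 and 7.40 in prt6-1 hypoxic seedlings against 8.12 and 7.98 in prt6-1 air seedlings (-0.55, SE 0.14, adjusted p = 0.0348). Neither pair of groups overlapped. In Col-0, UGT71C1 had 7.99 and 7.93 under hypoxia, within the 7.61 and 8.01 of air.

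Whether the response to hypoxia differs between a mutant and Col-0 was tested as an interaction. By limma 0 UGT genes were called for prt6-1, beside 0% of all probe sets more positive and 0.167% more negative in the mutant. The unadjusted limma p for prt6-1 was under 0.05 for 2 UGT genes and for 1846 of all 22746 probe sets. For ate1 ate2 limma called 0 UGT genes, beside 0.0132% of all probe sets more positive and 0.295% more negative (0.308% in all). The unadjusted limma p for ate1 ate2 was under 0.05 for 6 UGT genes and for 1740 of all 22746 probe sets. The largest interaction for prt6-1 was that of UGT71C1, which differed by -0.55 between hypoxia and air in prt6-1 and by 0.15 in Col-0, a gap of -0.70 (SE 0.19, adjusted p = 0.312). For ate1 ate2 the largest gap was that of UGT72E2 at -0.53 (SE 0.16, adjusted p = 0.356).

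Leaving out either Col-0 hypoxia array ended both calls in Col-0, Col-0 air replicate 1 ended that of UGT85A2 (adjusted p = 0.271) and Col-0 air replicate 2 that of UGT76C2 (0.121). Leaving out prt6-1 air replicate 2 or prt6-1 hypoxia replicate 2 ended all 3 in prt6-1, prt6-1 hypoxia replicate 1 ended those of UGT71C1 and UGT71C2, and UGT71C1 was also lost without prt6-1 air replicate 1 or without a single ate1 ate2 or Col-0 array from hypoxia. Some root markers moved with the same comparisons. Of 3 measured of 8 root markers, EXPA7 and EXPA18 fell under hypoxia in both mutants. The differences were -0.75 and -1.23 in prt6-1 and -1.06 and -1.21 in ate1 ate2. The third marker was called in neither mutant, and 0 of the 3 were called in Col-0. In the test of the hypoxia response against Col-0, 1 of the 3 was more negative in ate1 ate2 and 0 in prt6-1. Between air seedlings and seeds the 3 did not all move together, with 2 higher in each genotype and 1 lower in prt6-1. EXPA7 was also 0.97 higher in ate1 ate2 than in Col-0 in air. The mean of the 3 markers lay between 5.87 and 5.98 in prt6-1 under hypoxia against 6.48 and 6.57 in air. In ate1 ate2 it lay between 6.06 and 6.15 under hypoxia against 6.79 and 6.98 in air. In Col-0 it was 6.06 in both hypoxic arrays against 6.34 and 6.40 in air. Their part in the UGT values was not tested.

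The comparison of prt6-1 with Col-0 in imbibed seeds gave 0 UGT genes higher and 3 lower, beside 2.19% of all probe sets higher and 1.91% lower (4.11% in all). Of the 46 genes, 13 had a value above 0, and the family's median was -0.19, against -0.02 over all probe sets. No p is attached to that shift of the family.

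UGT78D1 had 8.11, 8.44 and 8.29 in prt6-1 seeds against 8.97, 9.0 and 9.31 in Col-0 seeds. No seed array of 1 genotype reached the other, and the flavonol gene was 1.76-fold lower in prt6-1 (-0.82, SE 0.14, adjusted p = 0.0157). It is the member called lower in prt6-1 in air, under hypoxia and in seeds, 3 comparisons between separate arrays, of which those in air and under hypoxia share 1 estimate of the spread. With 1 limma fit of all 18 arrays the calls of UGT78D1 in air and under hypoxia were lost (adjusted p = 0.0564 and 0.128). Quantile normalization before the limma fit also ended its call under hypoxia (adjusted p = 0.0582). In ate1 ate2 against Col-0, UGT78D1 gave -0.22 in air and 0.08 under hypoxia and was called in neither.

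UGT85A5 (AT1G22370) had 5.83, 5.78 and 5.99 in prt6-1 seeds against 6.70, 6.38 and 6.47 in Col-0 seeds (-0.65, SE 0.12, adjusted p = 0.025). UGT73C7 (AT3G53160), whose enzyme glucosylates phenylpropanoid acids, had 5.74, 5.42 and 5.58 in prt6-1 seeds against 6.25, 6.07 and 6.08 in Col-0 seeds (-0.55, SE 0.12, adjusted p = 0.0439). In both genes all prt6-1 arrays lay below all Col-0 arrays. The largest values not called were UGT73B5 at -0.63 (adjusted p = 0.212), UGT85A2 at -0.60 (adjusted p = 0.0529) and UGT76B1 at -0.59 (adjusted p = 0.068).

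Without Col-0 seeds replicate 1, which stood apart, 5 genes were called lower in prt6-1. UGT78D1 and UGT85A5 kept their calls, UGT73C7 lost it (-0.49, adjusted p = 0.0594), and UGT72E2 (-0.68), UGT73B1 (-0.84) and UGT85A2 (-0.70) passed. Without Col-0 seeds replicate 3, prt6-1 seeds replicate 1 or prt6-1 seeds replicate 3, 0 genes were called by limma, and without prt6-1 seeds replicate 2 only UGT78D1 was.

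The effect of prt6-1 in air seedlings was then set against its effect in seeds. The difference between the effects was called for 3 UGT genes, all more positive in seedlings, and for 0 the other way, beside 3.06% of all probe sets more positive and 2.55% more negative (5.61% in all). UGT76B1 was higher in prt6-1 by 0.53 in seedlings, while in seeds it had 6.89, 6.73 and 7.01 in prt6-1 against 7.43, 7.24 and 7.74 in Col-0. The mutant arrays thus lay above Col-0 in seedlings and below it in seeds, and the effects differed by 1.11 (SE 0.21, adjusted p = 0.00384).

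UGT71C2 differed by 0.76 in seedlings and by 0.05 in seeds, where prt6-1 had 6.41, 6.70 and 6.69 against 6.58, 6.55 and 6.52 in Col-0. The effects differed by 0.71 (SE 0.16, adjusted p = 0.0164). UGT85A2 differed by 0.11 in seedlings, and in seeds it had 9.45, 9.55 and 9.70 in prt6-1 against 9.96, 10.41 and 10.13 in Col-0. Its seed groups did not overlap and the effects differed by 0.71 (SE 0.18, adjusted p = 0.0265).

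The calls for UGT71C2 and UGT85A2 were lost without prt6-1 air replicate 2 (adjusted p = 0.112 and 0.119). UGT71C2 was also not called when Col-0 air replicate 1 was left out, and UGT85A2 when leaving out Col-0 air replicate 2, prt6-1 air replicate 1 or prt6-1 seeds replicate 1. UGT76B1 kept its call whichever array was left out, and without Col-0 seeds replicate 1 UGT72E2 (0.98) and UGT76E11 (-0.83) passed as well.

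**Figure D4:**
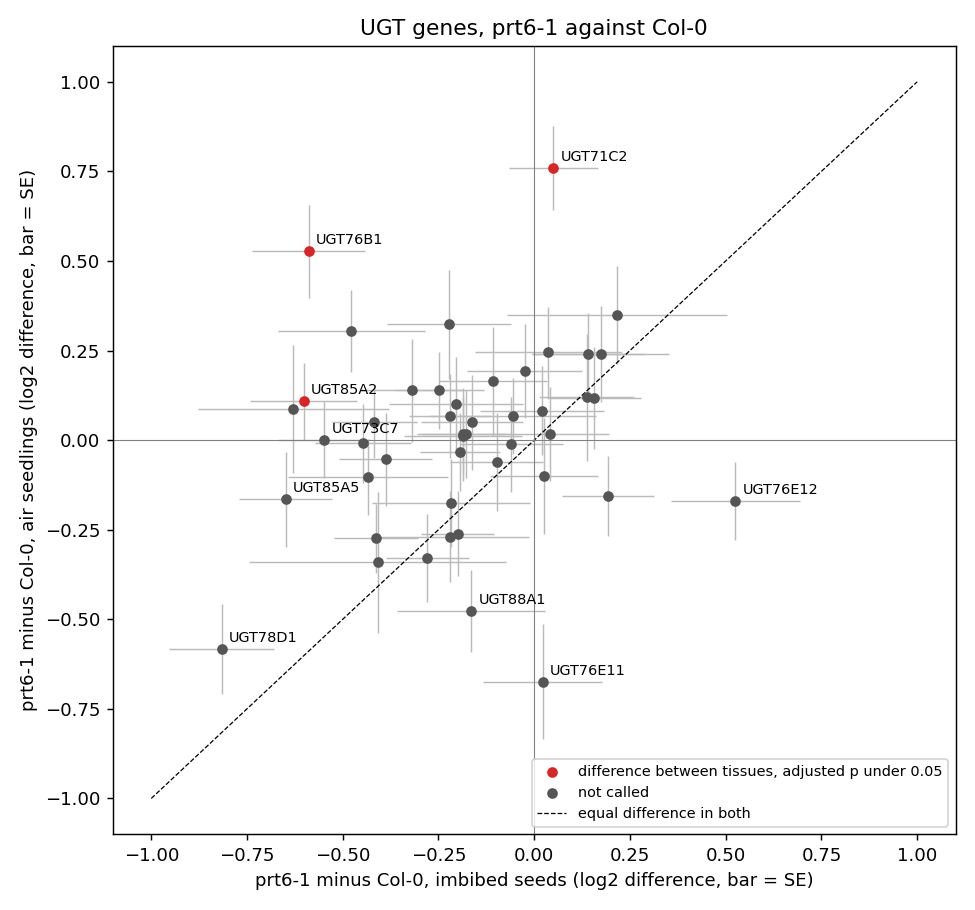
Each point is 1 of 46 UGT genes, with the prt6-1 minus Col-0 log2 difference in imbibed seeds on the horizontal axis and in air seedlings on the vertical axis, bars showing the SE and the dashed line equal differences. UGT76B1 lies at 0.53 in seedlings and -0.59 in seeds, and UGT78D1 lies low on both axes, at -0.58 in seedlings and -0.82 in seeds.

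The 13 genes called in no comparison were UGT71B5, UGT71B6, UGT71B8, UGT73C1, UGT73C2, UGT73D1, UGT76D1, UGT76E1, UGT78D3, UGT84A1, UGT84B2, UGT85A3 and UGT85A4. Among them are UGT71B8, which acts on abscisic acid like UGT71B6, UGT73C1, which can glucosylate cytokinins, and UGT78D3, which adds arabinose to flavonols. All but UGT76D1, UGT84A1, UGT85A3 and UGT85A4 lay in the dimmest 33.3% of probe sets in seedlings. The widest value among the 13 was that of UGT76D1, which acts on dihydroxybenzoic acids, at 0.55 between air seedlings and seeds of prt6-1 (adjusted p = 0.0603). Without prt6-1 seeds replicate 2, at 6.03 against 4.89 and 4.90 in the other prt6-1 seed arrays, UGT76D1 was called higher at 0.93 (adjusted p = 4.39e-05). UGT73D1 gave -0.45 between hypoxia and air in ate1 ate2 (adjusted p = 0.0916), and without ate1 ate2 air replicate 2 it was called lower (-0.66, adjusted p = 0.0151).

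Glycosyltransferases of the same family that carry another symbol gave a wider view, with 27 of 43 listed genes measured. Under hypoxia 0 were higher and 1 lower in each genotype, beside 2.32% of all probe sets lower in prt6-1, 1.31% in ate1 ate2 and 0.457% in Col-0. That gene was IAGLU (AT4G15550), which forms the glucose ester of indole-3-acetic acid and was lower by -1.14 in prt6-1, -1.06 in ate1 ate2 and -0.72 in Col-0 (adjusted p = 3.42e-05, 0.000103 and 0.0023). Against Col-0 in air, 4 were lower in prt6-1 and 3 in ate1 ate2, and 0 were higher in either mutant, beside 1.97% and 1.62% of all probe sets lower and 2.18% and 2.09% higher. UF3GT (AT5G54060), which adds xylose to anthocyanins, averaged 6.07 in prt6-1 against 6.83 in Col-0 (-0.77, adjusted p = 0.0162). AT4G14090 was lower in both mutants, with -0.85 in prt6-1 and -0.64 in ate1 ate2, and so was AT5G03490, with -0.43 and -0.41. Under hypoxia 5 were lower in prt6-1 and 3 in ate1 ate2, beside 3.64% and 1.51% of all probe sets. Among them GT72B1 (AT4G01070), which acts on lignin precursors and on chlorinated foreign compounds, averaged 9.05 in prt6-1 against 9.79 in Col-0 (-0.74, adjusted p = 0.00197).

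In seeds 2 of the 27 were lower in prt6-1, beside 1.91% of all probe sets. They were AT2G16890, lower by -1.33 (adjusted p = 0.00135) and AT1G10400 by -0.58 (adjusted p = 0.0253). Between air seedlings and seeds 11 were higher and 6 lower in Col-0, and 8 were higher and 5 lower in prt6-1. Of all probe sets 27% were higher and 38% lower in Col-0, and 27.7% were higher and 37.2% lower in prt6-1. GT72B1 was 10.9-fold higher in seedlings of Col-0 and 19.0-fold higher in those of prt6-1, the same direction as its relative UGT72B3.

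Few genes that make the acceptors had a probe set annotated to them alone. Of 3 measured of 15 flavonoid and anthocyanin genes, DFR, which makes the leucoanthocyanidins, differed from Col-0 in air by -1.66 in prt6-1 and -0.98 in ate1 ate2 (adjusted p = 0.000714 and 0.0299). AT5MAT, an anthocyanin acyltransferase gene, was lower by -0.57 in ate1 ate2. Under hypoxia DFR was lower by -1.05 in prt6-1. In seeds, where UGT78D1 was lower in prt6-1, 0 of the 3 were called by limma.

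Of 3 measured of 18 phenylpropanoid and monolignol genes, all were higher in air seedlings than in seeds in both genotypes, beside 27% of all probe sets in Col-0 and 27.7% in prt6-1; with 3 genes measured, nothing is read from this about the pathway. HCT, an acyltransferase of lignin precursor synthesis, was 12.3-fold higher in Col-0 and 8.78-fold higher in prt6-1. CCR2, a cinnamoyl-CoA reductase gene, was lower in both mutants under hypoxia, by -0.60 in prt6-1 and -0.67 in ate1 ate2. The 1 of 15 glucosinolate genes measured, CYP79A2, was called only between air seedlings and seeds of prt6-1 (-0.40), where UGT74B1 was lower too (-0.48). It was not called between prt6-1 and Col-0 under hypoxia, where UGT74B1 was lower in prt6-1. With 1 gene measured, nothing is read from this about the pathway. Of 23 listed partners in the response to foreign compounds 2 were measured, and both glutathione transferase genes, GSTU20 and GSTU25, were higher in seedlings than in seeds and called in no other comparison. Of 18 listed genes of UDP-sugar supply 0 had a probe set annotated to that gene alone, so they are not reported here.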

How the data were processed

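Labelled RNA from 12 seedling and 6 seed samples was hybridised to ATH1 arrays, 1 array per sample, with groups taken from the labels. The authors deposited log2 values per probe set made with RMA, and the submitters' processing notes also name affy; versions are not given in the sources used here, nor whether 1 normalization covered both tissues. RMA evens out array distributions, so a shift shared by most transcripts is removed. The tests used 22746 of 22810 probe sets, without the 64 AFFX controls. GEO's platform annotation gave 1 gene for 13513 probe sets, several for 503 and none for 8730; symbols and gene order came from the TAIR10.1 gene table. The array names no build, so no coordinates are given, and no sequences were available. One further UGT gene is not reported here.

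Group means were fitted with limma 3.58.1 (R 4.3.3) on the deposited log2 values, in 1 model of the 12 seedling arrays, 1 of the 6 seed arrays and 1 of all 18 for comparisons between tissues. Tests were moderated and two-sided, with Benjamini-Hochberg adjustment over 22746 probe sets in each of 15 comparisons and a threshold of 0.05. The number of arrays limits the precision. Same-numbered seedling arrays deviated from their group means with correlations between -0.23 and 0.26, and seed arrays between -0.08 and -0.02. The numbers were not taken as pairs, and these correlations do not settle whether same-numbered arrays share an experiment. The text names members called in any comparison, some of the 3 largest uncalled values of each, and of other lists up to 4 called genes; levels of different probe sets were not ranked. Pairs of neighbours and the members given as uncalled relatives were chosen after their values were seen. Members and lists were chosen with earlier results of these data known. Alternatives were quantile normalization, leaving out the dimmest 33.3% of probe sets, an intensity trend, other sets of arrays, a replicate block and leaving out each array. The fit was tested on simulated data.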

Additional observations from a re-analysis of the deposited data

Results flagged for a closer look

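The effect of prt6-1, as prt6-1 minus Col-0, differed between air seedlings and imbibed seeds for 3 UGT genes by a test of the difference itself. For UGT76B1 the effect in seedlings exceeded that in seeds by 1.11 on the log2 scale. The gap was 0.71 for UGT71C2 and 0.71 for UGT85A2. Stage, growth conditions and experiment cannot be told apart in this comparison. No group held 4 or more arrays, so single arrays were not tested for standing apart gene by gene.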

How the results depend on the processing

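The 81 single-gene calls reversed in 0 alternatives, and 48 held in every alternative run, 45 of the 54 between seedlings and seeds but only 3 of the other 27. With 1 fit of all 18 arrays the calls numbered 1 for hypoxia against air in Col-0 and 1 in prt6-1, 1 for each mutant against Col-0 in air, 2 for prt6-1 and 1 for ate1 ate2 against Col-0 under hypoxia, and 11 for prt6-1 against Col-0 in seeds. An intensity trend gave 1 for hypoxia in ate1 ate2, 1 for ate1 ate2 against prt6-1 under hypoxia and 6 in seeds. Leaving out the dimmest 33.3% gave 6 in seeds, quantile normalization 3 for prt6-1 against Col-0 under hypoxia, and only the compared arrays 1 for the prt6-1 effect between tissues. The cause was not tested. With the replicate number as a block, seeds gave 1 call, and no other count moved by over 1.5 times. Among 15 seedling pairings 7 correlations were above 0.1, and in seeds 0 of 3. These correlations do not settle whether same-numbered arrays come from 1 experiment.

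Leaving out 1 array at a time gave 0 to 2 calls for hypoxia in Col-0, 0 to 3 in prt6-1 and 0 to 1 in ate1 ate2. Against Col-0 in air it gave 1 to 5 for prt6-1 and 1 to 4 for ate1 ate2, and under hypoxia 0 to 6 and 0 to 3. In seeds it gave 0 to 5, between tissues 23 to 27 in Col-0 and 25 to 30 in prt6-1, and for the prt6-1 effect 1 to 5. Between the mutants and for both interactions it gave 0. A group left with 1 array was assumed to vary like the others. Several probe sets per gene were not compared, since each member has 1. Dim probe sets have no measured signal over background, which limits what small differences can show.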
